A study of Mus musculus with 6 samples.

Results

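The genes described here are those for voltage-gated sodium (Nav), calcium (Cav), potassium (Kv) and HCN channels and the families filed under the same symbols. They were taken as every gene symbol that begins with Kcn and a letter, Cacna, Cacnb or Cacng, every Scn symbol that ends in a or b after its number, and the numbered Hcn genes. The pattern matched 133 of the 22651 genes in the tables, and 109 of the 133 were counted as expressed because they reached a TPM (the transcript level, scaled for transcript length and library size) of 1 in at least 3 of the 6 mice. All 109 could be tested, and 6 genes below that level also passed the low-count filter of the test, which gave 115 tested members. The lowest expressed members by their third-highest TPM were Kcnj14 at 1.06 and Kcnk5 at 1.19, and the highest that stayed out were Kcnq1 at 0.92 and Kcnh6 at 0.86. The name of the set is wider than its members. The symbols also take in inward rectifier (Kir) and 2-pore (K2P) potassium channels, calcium- and sodium-activated potassium channels, the AMPA receptor partners known as TARPs, the potassium channel regulator Kcnrg and the non-coding RNA Kcnq1ot1. They miss Scn2a1, the gene for Nav1.2, because its symbol ends in a number.

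mRNA was sequenced from the telencephalon, the part of the forebrain that includes cortex and striatum, of 3 WT and 3 TSC1 newborn mice (postnatal day 0). The WT mice carried 2 floxed Tsc1 alleles and no Cre (genotype TSC1 flox/flox;Emx1 +/+), and the TSC1 mice carried the same floxed alleles with Cre placed in 1 Emx1 allele (TSC1 flox/flox;Emx1-cre/+). The WT mice were littermates of Cre carriers. The floxed gene was therefore shared by both groups, and Cre acts in cells of the Emx1 lineage, mainly the excitatory neurons and glia of the dorsal telencephalon, so that other cells of the same tissue keep Tsc1. Each library held 14119365 to 17772865 estimated read counts, of which 3 counts correspond to a CPM (counts scaled to library size) of 0.169 to 0.212, and replicates of a group differed by more than sampling noise. Tsc1 itself stood at 50.2, 31.99 and 28.4 TPM in the WT mice and at 27.1, 21.7 and 22.4 TPM in the TSC1 mice. The groups did not overlap, but the log2 fold change of -0.66 (standard error 0.175) did not pass the test (edgeR adjusted p = 0.1, DESeq2 adjusted p = 0.00309). On the first principal component of all genes, TSC1 replicate 3 lay at -3.95, between the other TSC1 mice at 26.5 and 30.3 and the WT mice at -26.3 to -7.43, and the counts of called and nominally different genes are given with and without it.

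Voltage-gated channels open and close with the membrane potential. Nav channels carry the upstroke of the action potential, Kv channels end it and set its threshold and rate, Cav channels couple it to calcium entry and transmitter release, and HCN channels carry a current that turns on with hyperpolarization. A pore-forming subunit (alpha or alpha1) makes the channel, and auxiliary subunits such as Nav beta, Cav beta, alpha2delta, Kv beta and KChIP proteins set its surface number and its gating. In the newborn forebrain these genes are at an early stage of their developmental rise, with immature forms such as Nav1.3 more prominent than later in life.

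Channel mRNAs made up 0.406 to 0.427% of all counts in the WT mice and 0.438 to 0.441% in the TSC1 mice. The summed TPM of the members was 2892, 2820 and 2714 in WT and 2949, 2954 and 2980 in TSC1, so that the sums did not overlap, at a size that differed little. The median member had a mean of 15.6 TPM over the 6 mice, below the median of 27.1 TPM over all expressed genes. Only 6 members reached 100 TPM, 65 lay between 10 and 100, 37 between 1 and 10, and 1 below 1. The 28 auxiliary subunits had a median of 28.1 TPM and the 80 pore-forming subunits a median of 12.6 TPM. Counted among the auxiliary subunits were the 7 expressed Cacng genes, which include the TARPs of AMPA receptors. The Cacng class alone summed to 340 to 391 TPM per mouse. The auxiliary subunits together amounted to 1411, 1431 and 1417 TPM in WT and 1401, 1407 and 1493 TPM in TSC1, and these overlapped. The pore-forming subunits amounted to 1471, 1377 and 1285 TPM in WT and 1536, 1536 and 1476 TPM in TSC1, with the lowest TSC1 mouse just above the highest WT mouse.

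**Figure D1:**
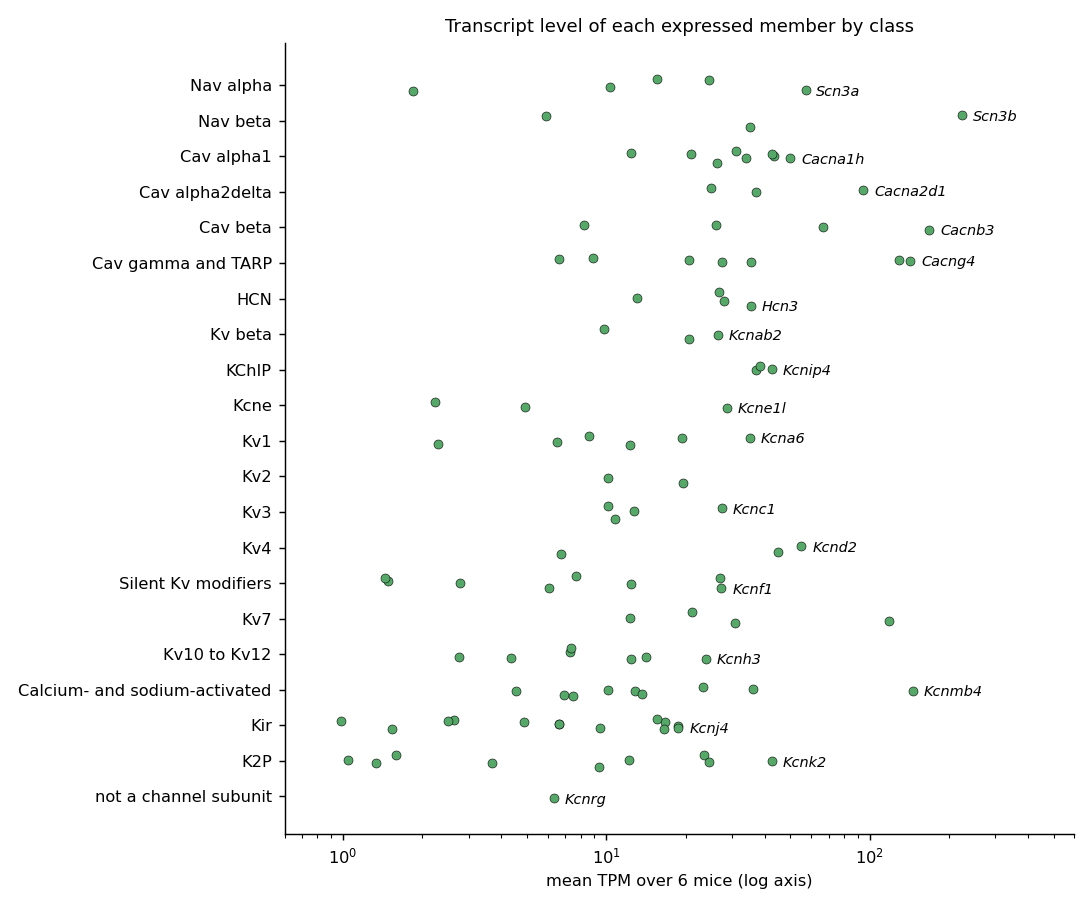
Mean TPM over the 6 mice (x axis, log scale) of each of the 109 expressed members (points), by channel class (rows), with the highest member of most classes named. The auxiliary subunit genes Scn3b and Cacnb3 lie farthest to the right, and the median member has 15.6 TPM.

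Of the 115 tested members, 4 passed the test between TSC1 and WT, 3 higher and 1 lower. Over all 13969 genes tested 1.52% passed (0.859% higher and 0.659% lower), and among the members the share was 3.48%. The calls fell in 2 classes. Of the alpha2delta subunits of Cav channels, Cacna2d1 rose and Cacna2d2 fell, and of the potassium channels gated by internal ions, Kcnt2 (Slick, sodium-activated) and Kcnn1 (SK1, a small-conductance calcium-activated channel) rose. In bulk tissue, fewer cells of a type and less RNA per cell cannot be told apart. DESeq2 called 12 of the 115 members (4.58% of all genes), and edgeR without TSC1 replicate 3 called 16 (5.68% of all genes).

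A weaker difference was spread over more members. An unadjusted p under 0.05 was reached by 38 of 115 members (33.0%), where 18% of all tested genes reached it. Of these, 24 were higher (9.04% of all genes) and 14 lower (8.93% of all genes) in TSC1. Without TSC1 replicate 3 the count was 39, with 23 higher and 16 lower (23.3% of all genes in either direction). The log2 fold change was positive for 71 of 115 members (61.7%, against 49.3% of all genes), and with upper-quartile scaling for 64 (55.7%, against 43.1%). Among the 109 expressed members the median log2 fold change was 0.08, with -0.0017 over all expressed genes tested. By TPM, all TSC1 mice lay above all WT mice for 20 of 109 members (12.3% of expressed genes) and below them for 12 (10.3% of expressed genes), so that the lower share was near the background. In 19 of these 32 members the TSC1 mouse nearest to the WT mean was replicate 3. The matching share over all expressed genes was not counted, so this cannot be read as a trait of the members. Replicate 3 was also the TSC1 mouse nearest to WT on the first principal component of all genes. The 95% interval of the change stayed within 1.5-fold in both directions for 62 of the 109 expressed members, and for 49 of the 71 with a mean of 10 TPM or more.

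**Figure D2:**
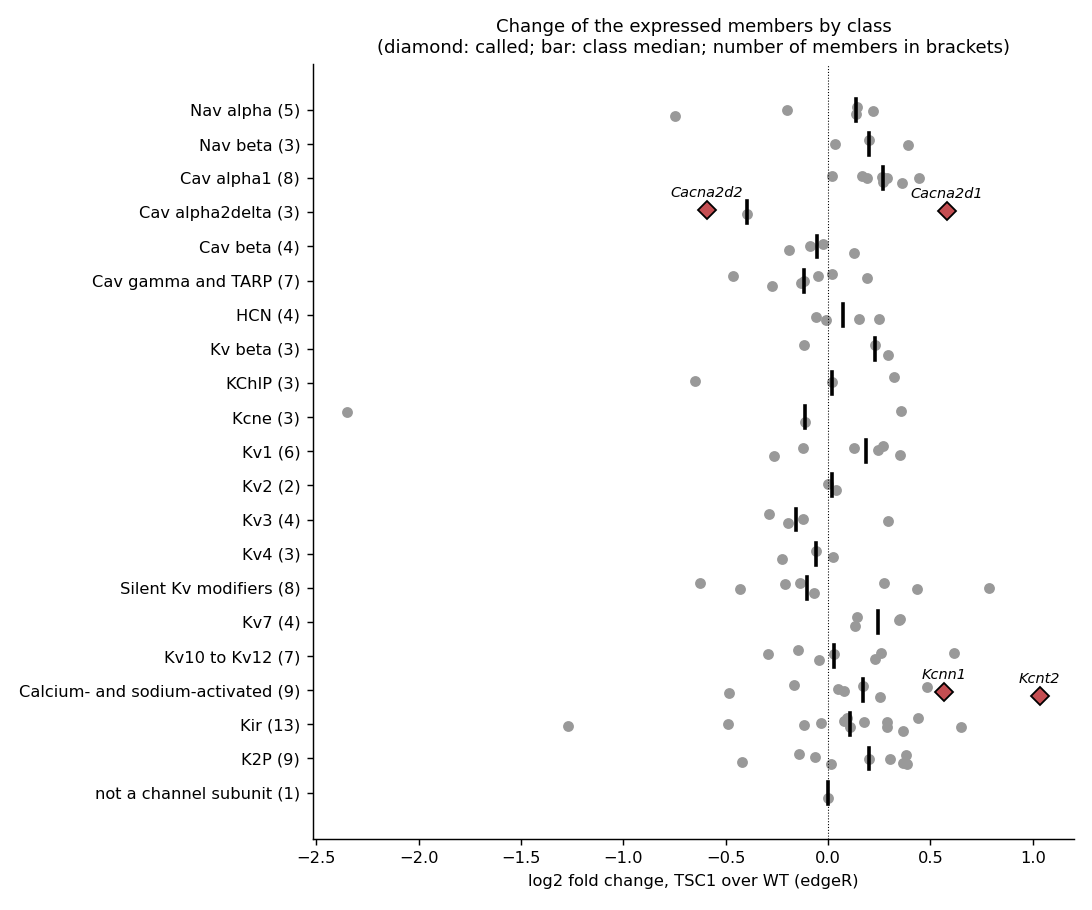
Log2 fold change of TSC1 over WT from edgeR (x axis) for each expressed member (points), by channel class (rows, number of members in brackets), with a vertical bar at the class median and red diamonds for the 4 members that passed the test. The 8 Cav alpha1 and the 4 Kv7 genes all lie to the right of 0, and the called alpha2delta genes lie on opposite sides.

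The alpha2delta subunits are extracellular proteins that carry Cav channels to the surface and to release sites, and alpha2delta-1 and alpha2delta-2 are the binding partners of gabapentin. Cacna2d1 (alpha2delta-1, chr5:15934691-16374511, plus strand, mm10) stood at 86.2, 71.6 and 67.6 TPM in WT and at 124, 114 and 104 TPM in TSC1. Every TSC1 mouse was above every WT mouse, by a log2 fold change of 0.58 (standard error 0.0861, 95% interval 0.39 to 0.77, edgeR adjusted p = 0.0203). Cacna2d2 (alpha2delta-2, chr9:107399612-107529343, plus strand) stood at 30.4, 28.3 and 30.6 TPM in WT and at 19.9, 17.95 and 22.4 TPM in TSC1. Every TSC1 mouse was below every WT mouse, and the log2 fold change was -0.59 (standard error 0.0994, 95% interval -0.82 to -0.37, adjusted p = 0.0297). Cacna2d3 (alpha2delta-3) had 41.6, 39.7 and 43.7 TPM in WT and 29.4, 29.8 and 37.3 TPM in TSC1, also without overlap, but did not pass the test (log2 fold change -0.40, adjusted p = 0.116). Cacna2d4 stayed below the expression limit. The family, Cacna2d4 included, summed to 158, 140 and 142 TPM in WT and to 174, 162 and 164 TPM in TSC1. The make-up of that sum differed more than its size. Alpha2delta-1 made up 54.4, 51.3 and 47.6% of it in WT and 71.5, 70.4 and 63.6% in TSC1, and alpha2delta-2 made up 19.2, 20.3 and 21.6% in WT and 11.4, 11.1 and 13.6% in TSC1.

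Cacna2d1 and Cacna2d2 are shown with the 250 bases before their RefSeq start sites (GRCm38.p6, the assembly of mm10), as the paralogs that moved apart, together with Kcnt2, the member with the largest called change. Of the 133 members, 97 had such a window. Each is written 5′ to 3′ on the gene's own strand, with matches to the GC box GGGCGG on either strand in capitals, where neighbouring matches may overlap. The windows are chr5:15934441-15934690, chr9:107399630-107399879 and chr1:140245468-140245717, all on the plus strand.
Cacna2d1: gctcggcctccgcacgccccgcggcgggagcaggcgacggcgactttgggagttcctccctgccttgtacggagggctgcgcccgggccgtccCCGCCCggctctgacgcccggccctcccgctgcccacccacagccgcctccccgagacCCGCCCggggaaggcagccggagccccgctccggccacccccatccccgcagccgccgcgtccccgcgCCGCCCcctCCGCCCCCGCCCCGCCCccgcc
Cacna2d2: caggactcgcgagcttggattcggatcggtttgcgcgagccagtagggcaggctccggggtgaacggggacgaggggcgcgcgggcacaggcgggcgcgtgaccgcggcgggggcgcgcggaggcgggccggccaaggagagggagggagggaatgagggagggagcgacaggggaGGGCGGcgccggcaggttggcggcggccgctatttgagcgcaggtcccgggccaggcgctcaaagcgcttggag
Kcnt2: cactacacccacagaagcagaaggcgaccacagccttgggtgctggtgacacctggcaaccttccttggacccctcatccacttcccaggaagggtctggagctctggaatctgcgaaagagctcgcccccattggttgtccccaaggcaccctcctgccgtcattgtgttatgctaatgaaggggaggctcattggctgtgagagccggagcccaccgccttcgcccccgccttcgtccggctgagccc
The 3 windows differed in composition. GC content was 82.4% for Cacna2d1, 74.4% for Cacna2d2 and 61.6% for Kcnt2, against a median of 52.4% over 32851 windows of all genes, and they held 36, 34 and 10 CpG dinucleotides against a median of 6. The GC box matched 6 times in the Cacna2d1 window, 1 time in that of Cacna2d2 and not in that of Kcnt2, and 32.7% of all windows held at least 1 match. The letters CACGTG (E-box, in 6.02% of all windows), TGACGTCA (1.55%), TGATGNAA (3.45%) and TATAAA (12.4%) were also searched on both strands and were in none of the 3 windows. The RefSeq start of Kcnt2 lies upstream of the GENCODE start of that gene, and the Cacna2d2 window lies within the GENCODE span of its gene, since another annotated transcript starts upstream. For Cacna2d1 and Kcnt2 the RefSeq start was not matched to a transcript named in the gene tables.

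The pore of a Cav channel is its alpha1 subunit, and 8 of the 10 genes were expressed. None passed the test, but all 8 had a positive log2 fold change (against 49.3% of all tested genes), with a median of 0.27. An unadjusted p under 0.05 was reached by 5 of 8, all higher (against 9.04% of all tested genes). The count of positive values was 7 of 8 with upper-quartile scaling and also without TSC1 replicate 3 or without WT replicate 1. In each of these Cacna1h was the gene that turned. Cacna1g (Cav3.1, a T-type channel that opens near the resting potential) had 29.99, 32.03 and 26.6 TPM in WT and 40.8, 40.9 and 34.0 TPM in TSC1, the only alpha1 gene whose groups did not overlap (log2 fold change 0.36, standard error 0.0909, adjusted p = 0.0873). Cacna1h (Cav3.2), the most abundant, had 40.7, 58.4 and 48.7 TPM in WT and 49.7, 50.4 and 52.5 TPM in TSC1, which overlapped (log2 fold change 0.02, adjusted p = 0.961). The class as a whole summed to 255, 246 and 215 TPM in WT and 293, 303 and 254 TPM in TSC1, so that TSC1 replicate 3 lay within the WT range. The Cav beta subunits, which chaperone the alpha1 pore, showed no such lean. Cacnb3, the second most abundant member of all, had 154, 189 and 173 TPM in WT and 158, 169 and 168 TPM in TSC1 (log2 fold change -0.09, adjusted p = 0.66), and 3 of the 4 beta genes had small negative values.

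The Cacng genes include the TARPs, which traffic AMPA receptors rather than calcium channels. Of 7 expressed members, 5 had a negative log2 fold change and none passed (1 lower at an unadjusted p under 0.05). Cacng4 (TARP gamma-4, a form of the immature brain) was the highest, with 157, 159 and 149 TPM in WT and 124, 127 and 143 TPM in TSC1. Its groups did not overlap, although TSC1 replicate 3 came close to WT (log2 fold change -0.27, adjusted p = 0.152). The class sums of 373, 391 and 386 TPM in WT and 340.3, 355 and 387 TPM in TSC1 overlapped.

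Nav alpha genes were represented by 5 expressed members. Scn3a (Nav1.3, the form typical of the fetal brain) was the highest of these, with 59.3, 51.4 and 51.0 TPM in WT and 66.1, 56.7 and 58.4 TPM in TSC1. These overlapped and did not pass (log2 fold change 0.14, standard error 0.0726, adjusted p = 0.354). Scn2a1 (Nav1.2), outside the pattern, had 91.8, 68.5 and 65.3 TPM in WT and 105, 103 and 94.4 TPM in TSC1, with no overlap (log2 fold change 0.40, standard error 0.105, adjusted p = 0.096 with edgeR and 0.00964 with DESeq2). As a share of the Nav genes of brain neurons (Scn1a, Scn2a1, Scn3a and Scn8a), Nav1.2 stood at 48.3, 44.1 and 42.5% in WT and 48.2, 51.2 and 48.6% in TSC1, and Nav1.3 at 31.2, 33.1 and 33.2% in WT and 30.4, 28.2 and 30.1% in TSC1. WT replicate 1 lay within the TSC1 range of the Nav1.2 share, and the Nav1.3 shares did not overlap. Reads of Scn1a, Scn3a, Scn9a and Scn2a1 were in part divided between similar genes by the quantification, as their fractional counts show, so these values are less certain than the others. The Nav beta subunits, which bind Nav channels and act in adhesion, held the most abundant member, Scn3b (beta-3), at 218, 219 and 220.5 TPM in WT and 220.5, 216 and 248 TPM in TSC1. Its groups overlapped, and the TSC1 value of 248 TPM came from replicate 3 alone (log2 fold change 0.03, standard error 0.0764, adjusted p = 0.863).

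All 4 HCN genes were expressed, and none passed the test (1 higher at an unadjusted p under 0.05). Hcn3 was the highest, at 33.6, 36.8 and 36.6 TPM in WT and 33.3, 35.8 and 35.8 TPM in TSC1, which overlapped (log2 fold change -0.06, adjusted p = 0.778). The class sums were 99.0, 102 and 99.0 TPM in WT and 102, 109 and 109 TPM in TSC1, and 2 of the 4 genes had positive and 2 negative values.

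The Kv7 genes, whose slow currents hold neurons below firing threshold (the M-current), all had positive values, as did those of Cav alpha1, Nav beta and Kv2. Without TSC1 replicate 3, only 2 of 3 Nav beta and 0 of 2 Kv2 genes stayed positive. Over all tested genes, 49.3% had a positive value in the main fit. The 4 Kv7 genes had a median log2 fold change of 0.24, but none passed the test (2 higher at an unadjusted p under 0.05, against 9.04% of all tested genes). They stayed positive with RLE or upper-quartile scaling, on the TPM scale, and without TSC1 replicate 3 or WT replicate 1. Kcnq3 (Kv7.3) had 30.2, 26.6 and 23.9 TPM in WT and 37.9, 33.0 and 33.7 TPM in TSC1 (log2 fold change 0.35, standard error 0.0972, adjusted p = 0.109). Every TSC1 mouse lay above every WT mouse for Kcnq3.

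Other Kv pore genes showed no called change. In the Kv3 class, whose fast channels serve rapidly firing neurons, 3 of 4 genes had negative values. Kcnc2 (Kv3.2) had 11.2, 11.5 and 10.6 TPM in WT and 9.36, 8.98 and 9.42 TPM in TSC1, apart but small (log2 fold change -0.29, standard error 0.0902, adjusted p = 0.142). Kcnc1 (Kv3.1), the highest of the class, had 28.6, 29.2 and 27.6 TPM in WT and 25.8, 26.5 and 27.1 TPM in TSC1, also apart (log2 fold change -0.12, adjusted p = 0.389). The most abundant genes of 4 other classes overlapped between groups. They were Kcna6 (Kv1.6, log2 fold change 0.13, adjusted p = 0.468), Kcnd2 (Kv4.2, -0.06, adjusted p = 0.728), Kcnh3 (Kv12.2, 0.26, adjusted p = 0.29) and Kcnf1 (Kv5.1, -0.14, adjusted p = 0.509). Kcnh7 (Kv11.3, of the ERG channels) had 13.6, 8.41 and 7.17 TPM in WT and 16.6, 15.1 and 13.8 TPM in TSC1, so that WT replicate 1 came close to the lowest TSC1 mouse (log2 fold change 0.62, standard error 0.197, adjusted p = 0.148).

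Among the electrically silent Kv subunits, which work only in mixed tetramers, 2 of the named genes were near the expression limit. Kcng3 (Kv6.3) had 0.99, 0.6 and 1.59 TPM in WT and 1.8, 2.01 and 1.71 TPM in TSC1 (log2 fold change 0.79, adjusted p = 0.264). Kcng2 (Kv6.2) had 1.74, 1.64 and 1.97 TPM in WT and 1.21, 1.34 and 0.99 TPM in TSC1 (log2 fold change -0.62, adjusted p = 0.226). Neither passed, although neither overlapped between groups.

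The auxiliary subunits of Kv channels differed among themselves. Kcnip1 (KChIP1, a calcium sensor that binds Kv4 channels) had 43.8, 43.0 and 48.3 TPM in WT and 29.7, 22.7 and 35.3 TPM in TSC1. All TSC1 mice were below all WT mice, with a log2 fold change of -0.65 that did not pass (standard error 0.153, adjusted p = 0.071). Kcnip4, the highest of the 3 KChIP genes, had 34.5, 36.6 and 40.5 TPM in WT and 47.4, 39.3 and 57.3 TPM in TSC1, which overlapped (log2 fold change 0.32, adjusted p = 0.277). Kcne2, a small subunit of Kv7 and other channels that is abundant in choroid plexus epithelium, had the most negative value of all expressed members. Its TPM was 10.7, 3.41 and 10.6 in WT and 1.25, 0.48 and 3.02 in TSC1, a log2 fold change of -2.35 with a standard error of 0.576 (adjusted p = 0.0796). Kcne1l, the highest Kcne gene, was similar in both groups (log2 fold change -0.11, adjusted p = 0.677), and Kcnab2 (Kv beta-2), the highest Kv beta gene, overlapped at -0.12 (adjusted p = 0.61). Kcnab1 and Kcnab3, the other Kv beta genes, were higher in every TSC1 mouse and did not pass (log2 fold changes of 0.23, adjusted p = 0.284, and 0.29, adjusted p = 0.332).

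Potassium channels gated by internal ions held the other 2 calls. Kcnt2 (Slick, chr1:140246158-140612067, plus strand) had 8.38, 5.82 and 5.63 TPM in WT and 15.3, 13.6 and 12.4 TPM in TSC1. This was the largest rise among the called members, at a log2 fold change of 1.03 or 2.05-fold (standard error 0.154, 95% interval 0.69 to 1.38, edgeR adjusted p = 0.0203). Its paralog Kcnt1 (Slack), with which it can form mixed channels, had 11.5, 16.3 and 16.1 TPM in WT and 11.7, 9.62 and 17.1 TPM in TSC1, a full overlap (log2 fold change -0.17, adjusted p = 0.75). Slick was 42.2, 26.3 and 26.0% of the pair in WT and 56.6, 58.6 and 42.1% in TSC1, where TSC1 replicate 3 lay just below WT replicate 1.

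Kcnn1 (SK1, chr8:70842049-70863258, minus strand) had 10.6, 11.2 and 8.99 TPM in WT and 14.8, 16.0 and 15.6 TPM in TSC1. All TSC1 mice lay above all WT mice, and the log2 fold change was 0.57 (standard error 0.111, 95% interval 0.32 to 0.82, adjusted p = 0.0473). Its paralog Kcnn2 (SK2) had 19.6, 19.7 and 18.2 TPM in WT and 31.6, 27.1 and 23.5 TPM in TSC1, also apart, without passing (log2 fold change 0.48, standard error 0.121, adjusted p = 0.0861). Kcnn3 (SK3) went the other way, with 7.83, 9.16 and 9.06 TPM in WT and 6.57, 5.18 and 7.18 TPM in TSC1 (log2 fold change -0.49, standard error 0.142, adjusted p = 0.12). SK3 thus made up 20.6, 22.8 and 25.01% of the SK transcripts in WT and 12.4, 10.7 and 15.5% in TSC1, with no overlap. Kcnmb4, the neuronal beta subunit of BK channels and the highest of this class, had 140.0, 147 and 134 TPM in WT and 149, 157 and 150.1 TPM in TSC1 (log2 fold change 0.08, adjusted p = 0.631).

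Cacna2d1, Cacna2d2 and Kcnt2 passed under all 9 alternatives that used every mouse, and Kcnn1 passed under 6 of 9. With 1 mouse left out, all 4 calls were lost without WT replicate 2, without WT replicate 3, without TSC1 replicate 1 or without TSC1 replicate 2 (adjusted p from 0.091 to 0.203), and Kcnn1 was also lost without WT replicate 1 (adjusted p = 0.0526), while the direction of each was kept in all 6 fits.

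**Figure D3:**
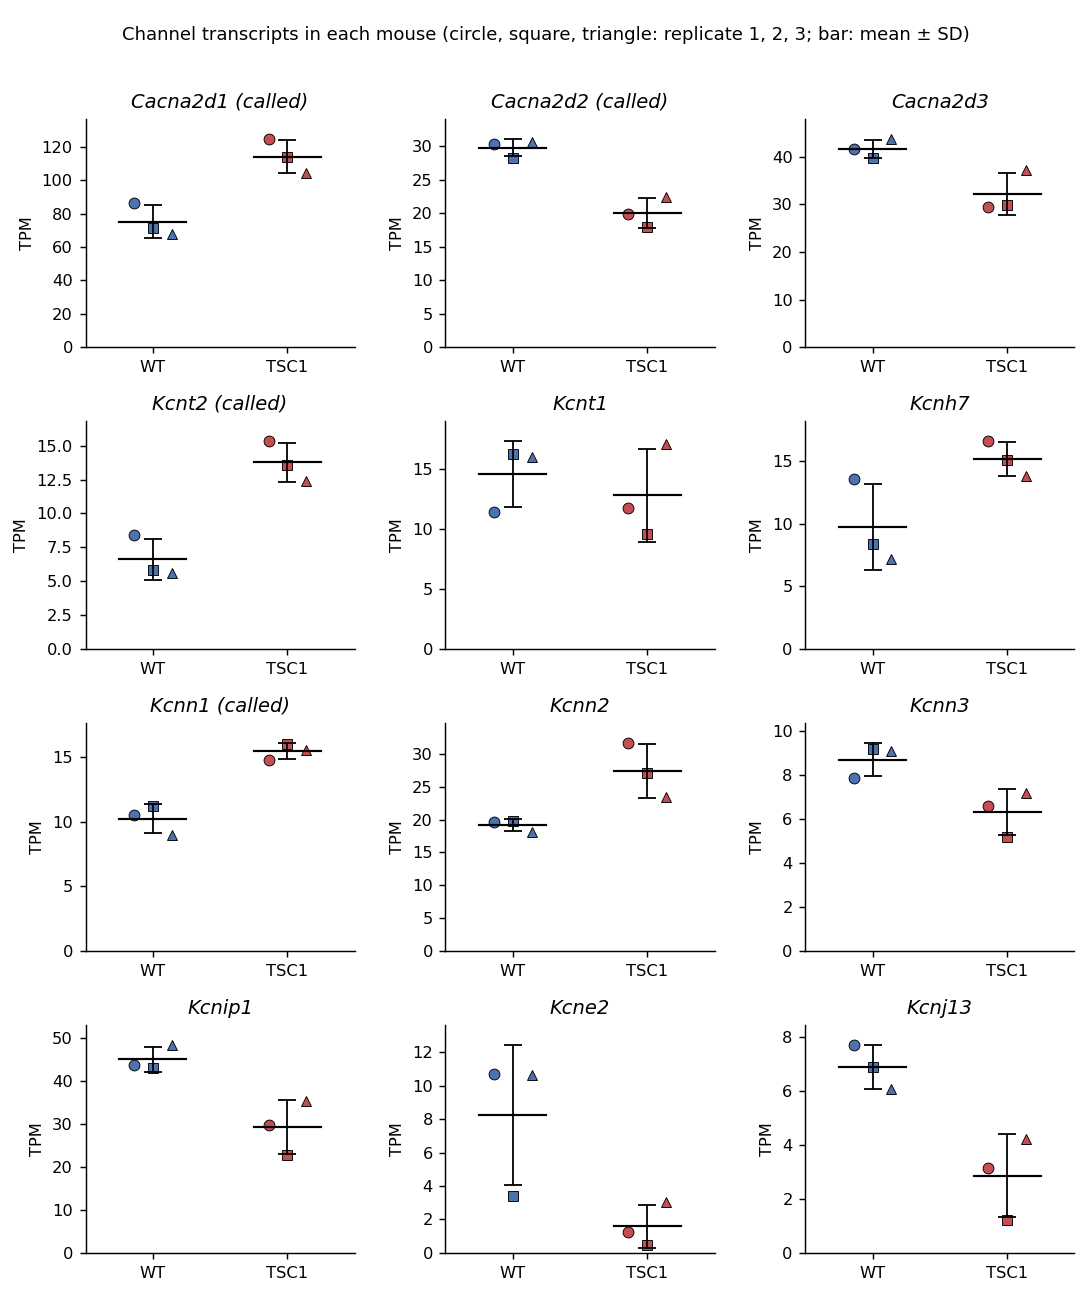
TPM (y axis, from 0, a separate scale in each panel) of 12 channel genes in the 3 WT and 3 TSC1 mice (points, with the replicate number by symbol), with the mean and SD of each group. The groups overlap for Kcnt1 and are apart for the other 11 genes, and the triangle of TSC1 replicate 3 is the TSC1 mouse nearest to WT in the alpha2delta panels.

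Inward rectifiers and K2P channels, which set the resting potential, held no edgeR call among 13 and 9 expressed genes, with 2 higher and 2 lower, and 1 higher, at an unadjusted p under 0.05. DESeq2 called Kcnj13. Kcnj13 (Kir7.1, found in choroid plexus and other epithelia) had 7.69, 6.87 and 6.08 TPM in WT and 3.16, 1.21 and 4.23 TPM in TSC1, which did not overlap and did not pass (log2 fold change -1.27, standard error 0.346, adjusted p = 0.104). Kcnj8 (Kir6.1, a channel of pericytes and vascular muscle) had 9.43, 12.5 and 11.1 TPM in WT and 8.0, 6.95 and 9.05 TPM in TSC1 (log2 fold change -0.49, adjusted p = 0.182). Kcnj4 (Kir2.3, neuronal) had 13.6, 17.6 and 16.1 TPM in WT and 22.4, 17.96 and 25.2 TPM in TSC1, apart by a small margin (log2 fold change 0.44, adjusted p = 0.194). Kcnk2 (TREK-1), the most abundant K2P gene, overlapped fully (log2 fold change 0.01, adjusted p = 0.95), and so did Kcnrg (adjusted p = 0.998).

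Of a list of 34 channel partners (ankyrins, spectrin, Fgf and Dpp family proteins, scaffolds, the leak channel Nalcn and Scn2a1), 33 were tested and none passed with edgeR. An unadjusted p under 0.05 was reached by 6 higher and 3 lower. DESeq2 called 4 of them, Ank2, Sptbn4 and Scn2a1 higher and Stac2 lower. The list had 22 positive and 11 negative values with a median of 0.06. Ank2 (ankyrin-B) had a log2 fold change of 0.49 (edgeR adjusted p = 0.113) and Sptbn4 (beta-IV spectrin of the axon initial segment) of 0.36 (adjusted p = 0.0683), while Stac2, an adaptor of L-type channels, had -0.66 (adjusted p = 0.059).

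The TPM sums of some marker lists of other cells differed between the groups, and those of others overlapped. The TPM sum of 13 striatal neuron markers was 460.4 to 611 in WT and 215 to 389 in TSC1, with all 13 negative (median log2 fold change -1.44), 11 of them apart and none called (11 at an unadjusted p under 0.05, 3 with DESeq2). The 11 markers listed for GABAergic interneurons summed to 1223 to 1361 in WT and 664 to 999 in TSC1, 10 of them apart and 5 called lower (Dlx1, Gad1, Gad2, Lhx6 and Slc32a1). Gad1, Gad2, Slc32a1 and the Dlx genes are not confined to interneurons, so this list is not separate from the striatal one. Of the 11, 10 were lower at an unadjusted p under 0.05 and 8 with DESeq2, while Calb2 overlapped (log2 fold change 0.06). Without TSC1 replicate 3, edgeR called lower 11 striatal, 10 interneuron and 6 choroid plexus markers. The 7 choroid plexus markers summed to 1705, 1178 and 2477 TPM in WT and 32.1, 111 and 869 TPM in TSC1, all 7 apart with a median log2 fold change of -1.72, none called by edgeR (7 at an unadjusted p under 0.05, 4 with DESeq2). The 10 glutamatergic cortical neuron markers summed to 1596 to 1842 TPM in WT and 1691 to 2131 TPM in TSC1, overlapped, and none was called (2 higher at an unadjusted p under 0.05, 1 with DESeq2, 2 without TSC1 replicate 3). Of the remaining lists, that of astrocytes and radial glia had 1 call, Gfap higher, although 7 of its 10 values were negative (median log2 fold change -0.12). It held 1 higher and 2 lower at an unadjusted p under 0.05, and DESeq2 called 1. The lists of the oligodendrocyte lineage, microglia, endothelial cells and pericytes had no call with edgeR. At an unadjusted p under 0.05 these held 1 higher and 2 lower, 3 lower, 4 lower, and 1 higher and 2 lower, and DESeq2 called 2, 0, 3 and 1. No marker list was absent, since none had a marker below 1 TPM in all 6 mice.

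Some of the lower channel genes can be set beside these lists mouse by mouse, each as a percentage of its WT mean. In TSC1 replicates 1, 2 and 3 the interneuron list stood at 56.2, 52.2 and 78.6%, the striatal list at 39.9, 44.2 and 72.2% and the choroid plexus list at 1.8, 6.21 and 48.7%. Cacna2d2 stood at 66.8, 60.3 and 75.1%, Cacna2d3 at 70.6, 71.5 and 89.6% and Kcnip1 at 66.0, 50.4 and 78.4%. Kcne2 stood at 15.2, 5.82 and 36.6% and Kcnj13 at 45.9, 17.6 and 61.5%. The choroid plexus sum was mostly Ttr, at 1652, 1142 and 2411 TPM in WT and 23.9, 102 and 843 TPM in TSC1. Its percentages therefore follow that gene. Ttr had the most negative log2 fold change of that list, at -2.44 against a list median of -1.72. For each of these lists and for these 5 genes, TSC1 replicate 3 was the TSC1 mouse nearest to WT. It was also nearest for Kcnc2, but by a small margin, since Kcnc2 was nearly level over the 3 mice at 84.4, 81.0 and 84.9%. That replicate 3 lay nearest was not particular to these genes. Cacna2d1 and Kcnt2, which rose, also had replicate 3 nearest to WT, while Kcnn1, which rose too, did not. Among the lower genes not set out here, Kcng2, near the expression limit, had replicate 3 farthest from WT. The part of the marker lists in the channel values was not tested.

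**Figure D4:**
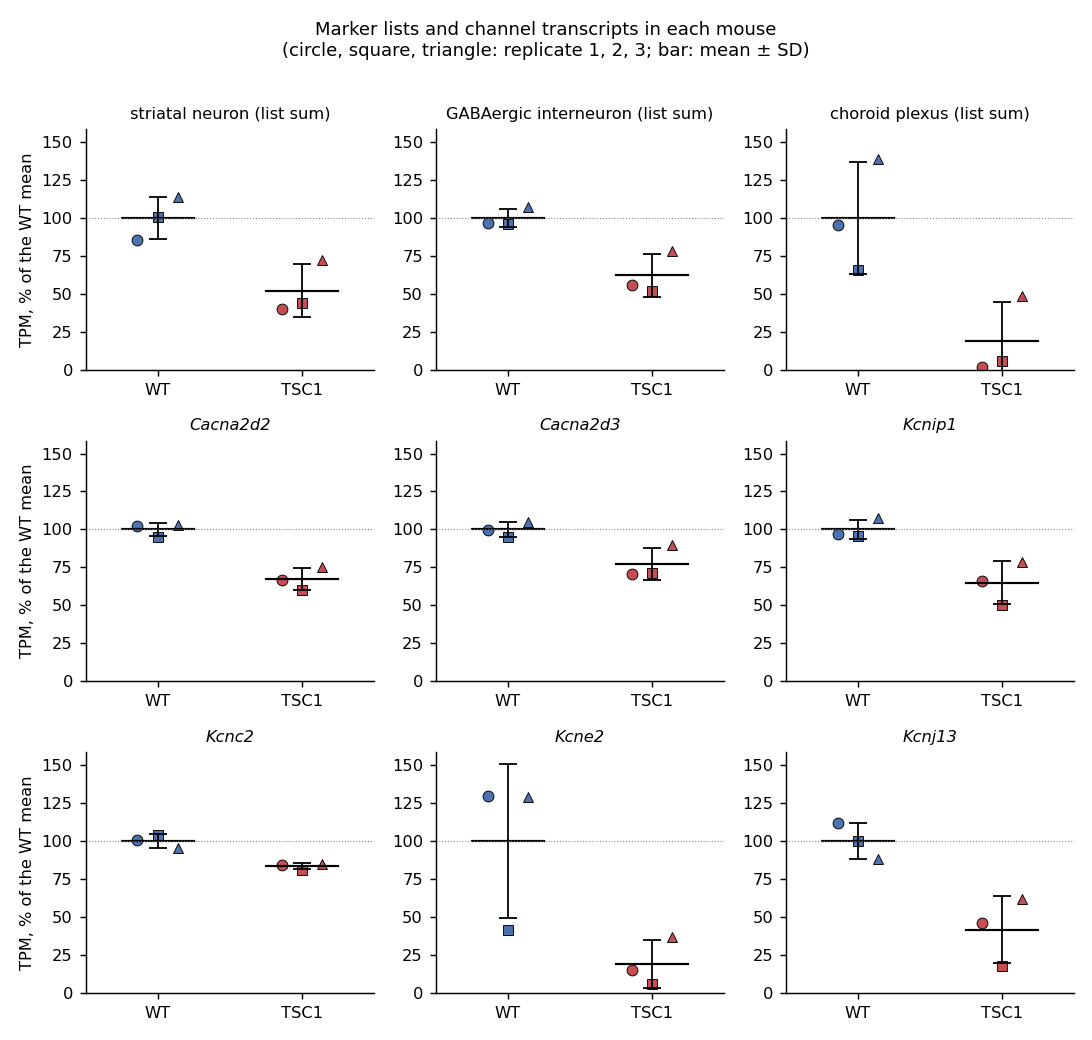
TPM as a percentage of the WT mean (y axis, one scale for all panels) in each WT and TSC1 mouse for the sums of 3 marker lists (top row) and for 6 channel genes, with the mean and SD of each group (an SD bar that would pass below 0 ends there). The choroid plexus sum is mostly Ttr. TSC1 replicate 3 (triangle) is nearest to WT in the list panels and in those of Cacna2d2, Cacna2d3, Kcnip1, Kcne2 and Kcnj13, and by a small margin in that of Kcnc2.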

How the data were processed

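The mRNA of 3 WT and 3 TSC1 telencephalons at postnatal day 0, 1 library per mouse, was analysed. The authors sequenced unstranded paired-end libraries, aligned the reads to mm10 and quantified genes with RSEM 1.2.12, as the study's methods and the submitters' processing notes state. The deposited tables hold expected counts, TPM and FPKM per gene as estimated by the authors, and the FPKM values were used only for an alternative expression limit. Without strand, reads of a gene and of its antisense partner (Kcnq1 and Kcnq1ot1) cannot be told apart. The expected counts, after rounding to integers, were fitted for all genes with edgeR 4.0.16 (TMM scaling, filterByExpr, quasi-likelihood test) in R 4.3.3, with Benjamini-Hochberg adjustment over all 13969 genes tested and a threshold of 0.05. Genes passing it are called. The standard error is the log2 fold change divided by the square root of F. The calculation was tested on simulated data with changes larger than those of the called members, which is no check of these calls. Groups were taken from the sample titles. Differences in TPM were described without a test, since 3 mice against 3 allow no exact permutation p below 0.1. Alternatives were RLE and upper-quartile scaling, DESeq2 1.42.0, limma 3.58.1 on log2(TPM + 1) and log2(TPM + 0.1), other filters (none, or 10 counts in every sample), effective lengths as offsets, the replicate number as a block and each mouse left out.

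Named genes are the called members, the 10 expressed members with the largest positive and the 10 with the largest negative log2 fold change among those whose TPM did not overlap between groups, the most abundant member of each class, Tsc1 and Scn2a1. Some of the genes this takes are not reported here. Kcnt1, Kcnab1, Kcnab3, Ank2, Sptbn4 and Stac2 were named after their values were seen. The members, the classes and the lists were chosen with earlier results of these data known. Gene positions are from GENCODE vM21 and start sites from RefSeq. Intervals cover the spread between these mice, and although the controls were littermates, which mice shared a litter is not given in the sources used here.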

Additional observations from a re-analysis of the deposited data

How the results depend on the processing

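The number of members called was 4 in the edgeR fit with TMM scaling, 3 higher and 1 lower. DESeq2 called 12 of 115 (7 higher and 5 lower, against 4.58% of all genes), the additional genes being Cacna1g, Cacna2d3, Kcne2, Kcnh7, Kcnip1, Kcnj13, Kcnn2 and Kcnq1ot1. With no low-count filter 6 of 130 members were called (against 1.92% of all genes), 3 of them lower. Of the channel partners 0 were called, with 4 under DESeq2 and 1 with no low-count filter. With 1 mouse left out, members called ranged from 0 to 16, higher from 0 to 8, lower from 0 to 8, and channel partners from 0 to 3. The 16 came without TSC1 replicate 3 (against 5.68% of all genes), and 5 were called without WT replicate 1 (against 3.18%). The other 4 fits called none of the members and 0.206 to 0.262% of all genes. At an unadjusted p under 0.05 they held 22 to 24 members (19.1 to 20.9%), against 11.8 to 12.8% of all genes. The cause was not tested.

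The shared replicate numbers were checked as a pairing. Deviations of same-numbered mice correlated at 0.27, -0.13 and 0.32 over genes, and WT replicate 2 correlated best with TSC1 replicate 3, so the numbers were not taken as pairs. A replicate block in the edgeR fit gave 8 called members (against 3.94% of all genes), 4 of them lower, and 3 channel partners.

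The median log2 fold change of all expressed members stayed between 0.05 and 0.12. With 1 mouse left out the sign turned for 27 of the 109 expressed members, none of them called, of which 20 had a log2 fold change within 0.1 of 0. With upper-quartile scaling it was -0.0149 for Cacna1h, -0.016 for Kcnk2 and -0.0312 for Kcnrg. Kcnrg was also at -0.000308 with DESeq2, -0.000963 with at least 10 counts in every sample and -0.00186 with the replicate block. With 1 mouse left out, the values ranged from -0.122 to 0.16 for Cacna1h, from -0.0371 to 0.0565 for Kcnk2, from -0.129 to 0.191 for Kcnrg, from -0.454 to 0.0080 for Kcnt1 and from -0.0456 to 0.073 for Scn3b. Members under about 10 TPM have wider intervals, and the smaller differences seen here were not detectable for them at this depth.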
